A study of Homo sapiens with 16 samples.

Results

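The genes described here encode the soluble factors that start, carry on and end protein synthesis on the cytosolic ribosome. They were taken as genes whose symbol begins with EIF or EEF, together with the release factor genes ETF1 and GSPT1 and the recycling factor gene ABCE1. The eIF4A helicase genes EIF4A1 and EIF4A2 and the genes EIF4B, EIF4G2 and EIF2A were left out, and EIF4A3 and EIF1AY are not reported. Of 68 such genes, 40 could be recognised in the deposited files, among 10711 recognised genes in all, and 38 had enough counts to be tested with drug. The other 28 were not analysed here, among them EEF2, EIF1, EIF5B, EIF3A and the eIF4E-binding protein genes.

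Ribosome profiling sequences the pieces of mRNA that ribosomes shield from RNase I, so that the count on a gene follows the number of ribosomes on its mRNA. Footprints came from 4 established human cell lines with the genetic background given as WT: NCI-H1650 and NCI-H520, from lung cancer, and Hs 936.T and A375, from melanoma. Each line was exposed for 30 min to DMSO, the solvent (2 libraries), to 0.3 µM of rocaglamide A, called RocA (1 library), or to 3 µM of RocA (1 library), 16 libraries in all. RocA is a plant compound that clamps the helicase eIF4A onto purine-rich RNA. A pair of libraries titled for NCI-H520, DMSO replicate 2 and RocA 3 µM, carry NCI-H521 as their cell line label and were grouped by title.

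Translation of most mRNAs begins when eIF4F, made of the cap-binding protein eIF4E, the scaffold eIF4G and eIF4A, recruits a small ribosomal subunit that carries eIF3 and the initiator tRNA bound to eIF2. At the start codon eIF5 triggers GTP hydrolysis on eIF2, which the exchange factor eIF2B later recharges and which stress kinases can block. eEF1A then brings each aminoacyl-tRNA, the exchange factors of the eEF1B complex recharge it, and eRF1, eRF3 and ABCE1 release the finished chain and split the ribosome.

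Counts over the recognised genes were 627427 to 3469953 per DMSO library and 54654 to 650395 per RocA library, the smallest being NCI-H1650 at 3 µM. The genes named here held 2.42% to 4.01% of them with DMSO and 2.69% to 5.32% with RocA. All levels below are CPM, counts scaled to a common library size and composition, and a change is the log2 ratio against DMSO from a fit over the 4 lines, with its standard error (SE). It measures a gene's footprints relative to those of other genes after this scaling, since total protein synthesis was not measured. Without RNA-seq the amount of mRNA and the ribosomes per mRNA cannot be told apart. In bulk samples fewer cells of a type and less RNA per cell cannot be told apart either. The labels do not say whether libraries came from separate cultures, so p-values measure only the spread between these libraries. The lines serve as replicates of a dose, the DMSO pairs also feed the error, and a value from 1 line at 1 dose has no replicate check. Of the marker genes, 8 of 10 melanocyte genes were recognised and summed to 30300 to 30800 CPM in the DMSO libraries of Hs 936.T but to 366 to 422 CPM in A375. They summed to 965 and 2430 CPM in the DMSO pair of NCI-H520 and to 124 to 143 CPM in NCI-H1650. Of 6 squamous lung genes 2 were recognised, and in NCI-H520 under DMSO TP63 was at 0 and their sum at most 1.31 CPM. The 4 recognised of 8 epithelial genes summed to 14200 to 15100 CPM in NCI-H1650 and 4720 to 4770 in NCI-H520, and to at most 15.4 CPM in the melanoma lines. The 5 recognised of 6 mesenchymal genes were above 0 in the DMSO libraries of each line, from 522 to 574 CPM in NCI-H520 to 3250 to 3450 CPM in A375.

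RocA clamps eIF4A onto purine-rich RNA. The longest run of A and G in the 5′ untranslated region (5′ UTR) is shown for a choice of members, not for all. The windows of 30 bases below come from GENCODE 29 transcripts whose coding length equals that of the entry used, with the run in capitals. Bases before the RefSeq start were not counted, and a transcript that begins after that start was read from its own first base. The first 5 genes fell at both doses and the last 2 rose at both.
ETF1: ctgggcccttAGGGAGGAGGAGGcgagaag
EIF1AD: caaggaactcAGGAGGAGGAGttgacagtc
EIF2S1: ggcggccggtGAGGGGGAAGcaagtctggt
EIF5: ggtacctgtattGGGGAAAcatagcataca
GSPT1: ccgcggcgacgccGGGGAtctttgtcgcta
EIF2D: tgcccccacggctGAGGGcctggcagctgc
EIF3D: ttcctggtttctcAAGAGtgctgctgctaa
On hg38 these lie at chr11:66000424-66000453 (EIF1AD, minus strand), chr14:67360368-67360397 (EIF2S1, plus), chr14:103335671-103335700 (EIF5, plus), chr16:11915840-11915869 (GSPT1, minus), chr1:206612408-206612437 (EIF2D, minus) and chr22:36529132-36529161 (EIF3D, minus), all in exons of the 5′ UTR, while the window of ETF1 crosses an exon junction. The run was 13 bases in ETF1, 11 in EIF1AD and 10 in EIF2S1, and 5 in EIF2D and EIF3D. GSPT1, among the strongest fallers, had a run of only 5 bases and EIF5 one of 7. EIF3L, not shown, rose at both doses with a run of 13 bases in its whole GENCODE 5′ UTR, as it had no RefSeq start entry. The GSPT1 transcript read begins downstream of its RefSeq start (the GENCODE gene ends at chr16:11916082), so the sequence between was not searched.

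Many mRNAs of the translation machinery begin with a C followed by further pyrimidines, a feature known for coupling their translation to mTOR. The 30 bases around the RefSeq start, 10 of them before it and 20 from the first transcribed base onward, are shown for the 5 members with the longest run of C and T there and for a pair of fallers without a long one. Capitals mark the pyrimidine run counted from at most 2 bases before the start, or beginning up to 2 bases after it; pyrimidines further upstream, as in EIF3D and EIF3M, were not counted and are in lower case.
EIF3D: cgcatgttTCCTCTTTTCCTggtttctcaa
EIF3K: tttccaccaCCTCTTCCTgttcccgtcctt
EIF3M: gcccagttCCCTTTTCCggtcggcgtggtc
EEF1A1: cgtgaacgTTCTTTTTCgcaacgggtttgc
EIF2D: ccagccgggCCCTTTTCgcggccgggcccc
EIF5: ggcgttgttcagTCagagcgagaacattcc
GSPT1: tttatgagccaCactgcagttttaagccgg
These are RefSeq sequences of GRCh38.p14 at chr22:36529147-36529176 (minus), chr19:38619178-38619207 (plus), chr11:32583821-32583850 (plus), chr6:73521013-73521042 (minus), chr1:206612446-206612475 (minus), chr14:103334227-103334256 (plus) and chr16:11916635-11916664 (minus), in that order.

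At 0.3 µM RocA 14 of the 38 tested factors rose (36.8%, against 24.2% of all 6642 genes tested) and 17 fell (44.7%, against 35.8%). At 3 µM 12 rose (31.6%, against 22.2% of all genes) and 16 fell (42.1%, against 33.9%). The median change was -0.36 at 0.3 µM and -0.09 at 3 µM, beside -0.18 and -0.23 over all genes, so the middle of the list lay near that of all genes while most single factors moved. Shares and medians of the list are given as a description, with no test. The 2 doses share their DMSO libraries. Called at both doses were 10 members as higher and 15 as lower, none was called in opposite directions, and 4 were called at neither. In 13 of the 14 risers and 16 of the 17 fallers at 0.3 µM all 4 lines had the same sign. Calls at both doses and signs by line were not counted over all genes, so they do not set the members apart.

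**Figure D1:**
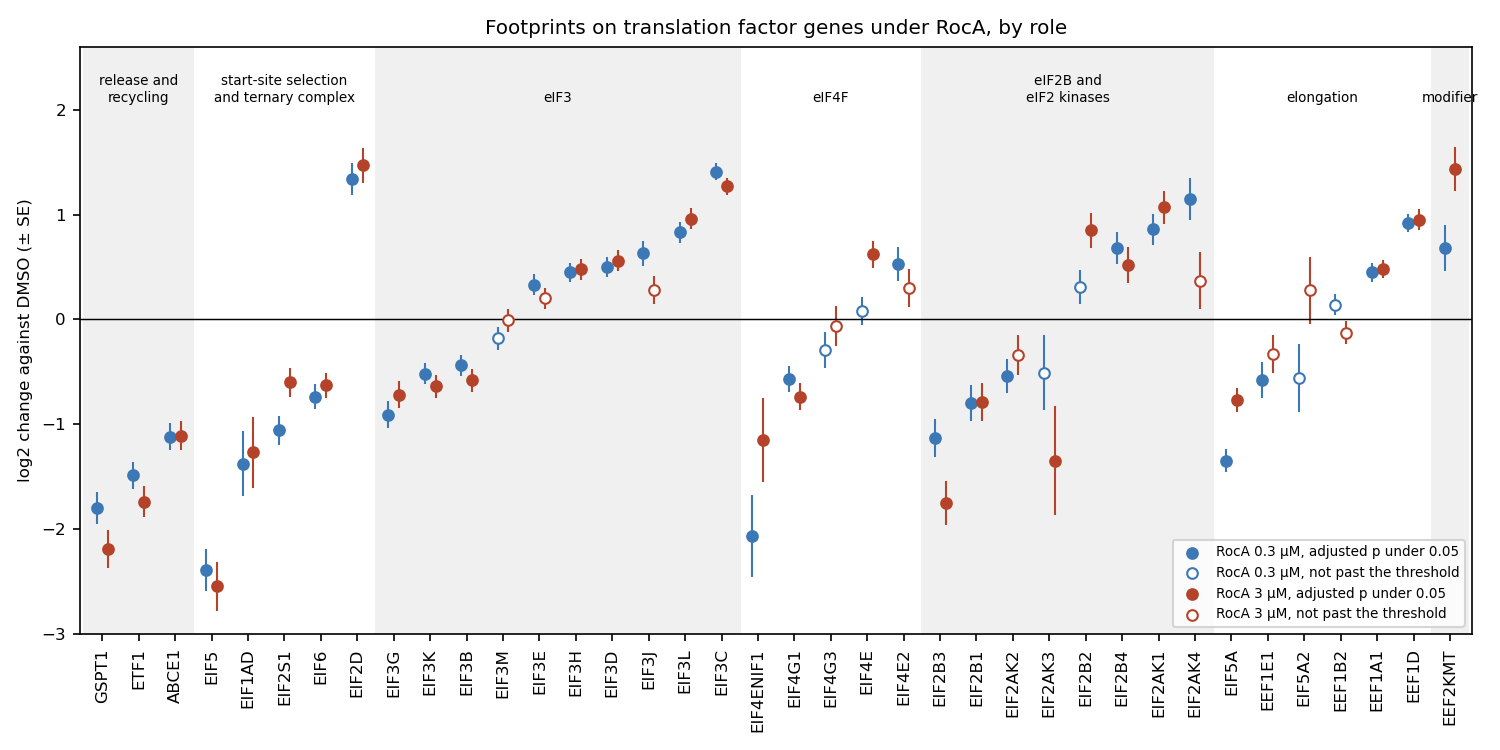
Fitted log2 change against DMSO (± SE, 4 lines) of the 38 tested factors at 0.3 µM (blue) and 3 µM RocA (red), grouped by role; filled points have an adjusted p under 0.05. Release and recycling factors all lie between -1.11 and -2.19, and eIF3 runs from -0.91 to 1.41. EIF2D stands at 1.34 and 1.47 in a group, labelled for the start site, whose other members fell.

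The genes tested that end translation all fell. All 3, which encode the stop codon reader eRF1 (ETF1), its partner GTPase eRF3a (GSPT1) and the ATPase that splits the ribosome afterwards (ABCE1), were lower at both doses. Of all genes tested, 35.8% fell at 0.3 µM and 33.9% at 3 µM, and the share lower at both doses was not counted. GSPT1 had 660 and 595 CPM in the DMSO libraries of NCI-H1650, 484 and 455 in NCI-H520, 411 and 404 in Hs 936.T, and 352 and 393 in A375. In the same order of lines it had 222, 51.6, 150 and 106 CPM at 0.3 µM and 202, 76.7, 110 and 63.2 CPM at 3 µM. No treated library reached the lowest DMSO value, and the change was -1.80 ± 0.15 at 0.3 µM (adjusted p = 6.1e-13) and -2.19 ± 0.18 at 3 µM (adjusted p = 3.6e-13).

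ETF1 had 317 and 251 CPM with DMSO in NCI-H1650, 503 and 535 in NCI-H520, 449 and 434 in Hs 936.T, and 402 and 395 in A375. Its treated libraries, in the same order, had 114, 202, 180 and 93.5 CPM at 0.3 µM and 62.3, 196, 120 and 106 CPM at 3 µM. These were again all below every DMSO library, with a change of -1.49 ± 0.13 (adjusted p = 6.4e-13) and -1.74 ± 0.15 (adjusted p = 3.4e-13). ABCE1 fell less, from 237 to 406 CPM with DMSO (median 324) to 114, 219, 128 and 139 CPM at 0.3 µM and 93.4, 183, 146 and 156 CPM at 3 µM. Its change was -1.12 ± 0.13 (adjusted p = 5.5e-10) and -1.11 ± 0.14 (adjusted p = 7.6e-09), with no overlap between groups.

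**Figure D2:**
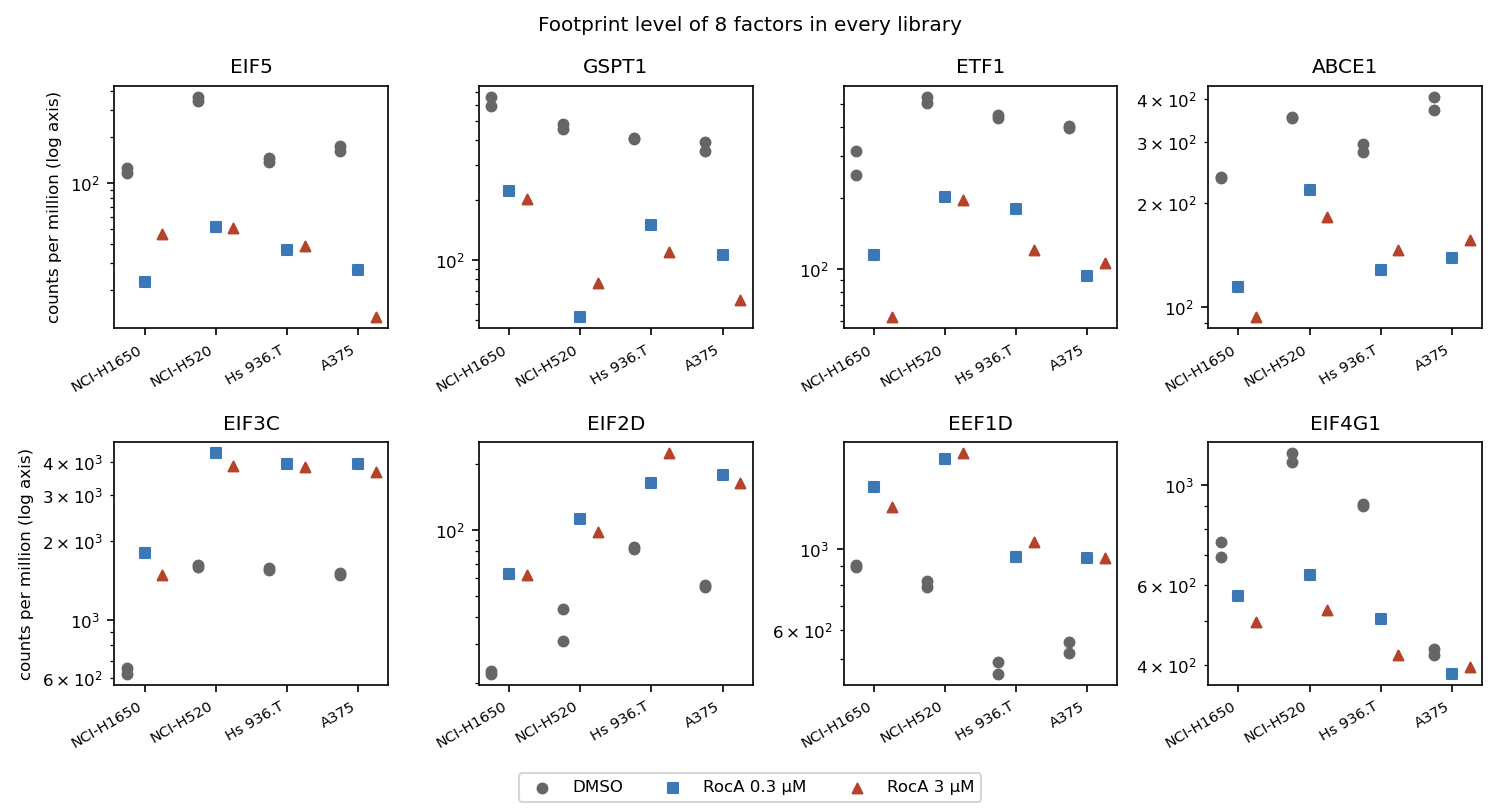
Footprint level (CPM, log axis) of 8 factors in every library of the 4 lines, with 2 DMSO libraries (grey) and 1 library at each RocA dose (blue squares, red triangles). GSPT1, ETF1, ABCE1 and EIF5 lie below their DMSO pair in each line, EIF3C, EIF2D and EEF1D above it, and EIF4G1 stays close to it in A375.

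Of 5 genes grouped here under start codon selection, initiator tRNA delivery and subunit joining, 4 fell and 1 rose at both doses. Among all genes 35.8% fell and 24.2% rose at 0.3 µM, and 33.9% fell and 22.2% rose at 3 µM. The fallers include EIF6, which acts on subunit joining, and EIF1AD, placed here by its name alone. EIF5, the GTPase-activating protein of eIF2, had the lowest fitted change of the 38 members. With DMSO it had 126 and 116 CPM in NCI-H1650, 343 and 364 in NCI-H520, 146 and 137 in Hs 936.T, and 175 and 161 in A375. The treated libraries had 22.7, 51.6, 36.7 and 27.1 CPM at 0.3 µM and 46.7, 51.2, 39.0 and 13.3 CPM at 3 µM, in the same order of lines. All lay below the DMSO range, for a change of -2.39 ± 0.20 (adjusted p = 5.8e-14) and -2.55 ± 0.23 (adjusted p = 6.1e-13), though these libraries held only 77 reads of EIF5 in all.

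EIF2D, which can place initiator tRNA without eIF2 and frees tRNA from recycled small subunits, moved the other way. It had 22.7 and 22 CPM with DMSO in NCI-H1650, 30.9 and 43.4 in NCI-H520, 81.4 and 83.2 in Hs 936.T, and 56.2 and 54.7 in A375. In that order it had 62.5, 112, 163 and 178 CPM at 0.3 µM and 62.3, 98.1, 224 and 163 CPM at 3 µM. Each treated library was above the DMSO pair of its own line, while NCI-H1650 under RocA lay within the DMSO values of the melanoma lines. The change was 1.34 ± 0.15 (adjusted p = 5.0e-10) and 1.47 ± 0.17 (adjusted p = 4.5e-10).

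EIF2S1, the subunit of eIF2 that stress kinases phosphorylate, fell by 1.06 ± 0.14 on the log2 scale at 0.3 µM (adjusted p = 9.1e-09) and by 0.60 ± 0.14 at 3 µM (adjusted p = 3.4e-04), with all libraries at 0.3 µM below the DMSO range. EIF6, which keeps large subunits from joining small ones, changed by -0.74 ± 0.12 (adjusted p = 7.0e-07) and -0.63 ± 0.12 (adjusted p = 3.4e-05). EIF1AD, named for a domain like that of eIF1A, ranged from 17.4 to 68.0 CPM with DMSO (median 41.5) and had 0, 30.1, 15.7 and 12.1 CPM at 0.3 µM and 15.6, 38.4, 6.49 and 16.6 CPM at 3 µM. It was below its line's DMSO pair in each line (-1.38 ± 0.31, adjusted p = 2.0e-04, and -1.27 ± 0.34, adjusted p = 0.0016), on 37 treated reads. The 0 in NCI-H1650 allows up to 17.1 CPM (3 reads, counting error only).

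The many-subunit platform eIF3 did not move as a unit. Of 10 tested subunit genes 6 rose and 3 fell at 0.3 µM (24.2% and 35.8% of all genes did). At 3 µM 4 rose and 3 fell (22.2% and 33.9% of all genes). EIF3C, a core subunit, had 657 and 624 CPM with DMSO in NCI-H1650 and between 1488 and 1624 CPM in the other lines. It reached 1797, 4329, 3952 and 3951 CPM at 0.3 µM and 1479, 3863, 3832 and 3683 CPM at 3 µM. The change of 1.41 ± 0.08 (adjusted p = 7.6e-19) and 1.27 ± 0.08 (adjusted p = 8.0e-17) was nearly equal in the 4 lines, from 1.34 to 1.49 at 0.3 µM. EIF3C has a near-identical copy, EIF3CL, and its value may hold reads of both.

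EIF3L, of the same outer arm as EIF3K, ranged from 499 to 786 CPM with DMSO (median 636) and had 904, 1127, 1112 and 1417 CPM at 0.3 µM and 934, 1433, 1331 and 1214 CPM at 3 µM. Every treated library was above every DMSO library (0.83 ± 0.10, adjusted p = 1.8e-09, and 0.96 ± 0.10, adjusted p = 1.8e-10). EIF3K fell instead (-0.52 ± 0.10 and -0.64 ± 0.11), and so did the scaffold and RNA-binding subunits EIF3B (-0.44 ± 0.10 and -0.58 ± 0.11) and EIF3G (-0.91 ± 0.13 and -0.72 ± 0.13), all with adjusted p at or under 3.5e-04. EIF3B and EIF3K lay below the DMSO range in each treated library, and each moved by over 1.5 times in 1 kind of alternative: EIF3B came to -0.29 at 0.3 µM and -0.38 at 3 µM without Hs 936.T, and EIF3K to -0.42 at 3 µM with libraries thinned to equal depth.

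EIF3D, which can bind the cap of some mRNAs, rose by 0.50 ± 0.10 and 0.56 ± 0.10 (adjusted p = 2.0e-05 and 1.1e-05), and EIF3H by 0.45 ± 0.09 and 0.48 ± 0.10. EIF3J, a loosely bound subunit, and EIF3E rose at 0.3 µM (0.63 ± 0.12, adjusted p = 1.4e-05, and 0.33 ± 0.10, adjusted p = 0.0028). At 3 µM they had 0.28 ± 0.13 (adjusted p = 0.070) and 0.20 ± 0.10 (adjusted p = 0.084), and both passed the threshold there under DESeq2 (0.32, adjusted p = 0.029, and 0.24, adjusted p = 0.040). EIF3M was called at neither dose (-0.18 ± 0.11 and -0.01 ± 0.11).

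In the cap complex and its partners 5 genes were tested. Of these EIF4G1 and EIF4ENIF1 fell at both doses, EIF4E2 rose at 0.3 µM and EIF4E at 3 µM, and EIF4G3 was called at neither. Over all genes 24.2% rose and 35.8% fell at 0.3 µM, and 22.2% rose and 33.9% fell at 3 µM. EIF4G1, the scaffold of eIF4F, had 749 and 693 CPM with DMSO in NCI-H1650, 1174 and 1123 in NCI-H520, 905 and 899 in Hs 936.T, and 434 and 422 in A375. It had 569, 633, 505 and 383 CPM at 0.3 µM and 498, 529, 422 and 396 CPM at 3 µM, which left the 4 lines closer together under RocA than under DMSO. The fitted change was -0.57 ± 0.12 (adjusted p = 7.1e-05) and -0.74 ± 0.13 (adjusted p = 5.4e-06), with -0.37 at 0.3 µM without Hs 936.T.

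EIF4ENIF1, which carries eIF4E into the nucleus and to sites of mRNA storage, ranged from 16.8 to 39.5 CPM with DMSO (median 27.6). It had 11.4, 4.30, 8.74 and 3.02 CPM at 0.3 µM and 0, 12.8, 19.5 and 6.65 CPM at 3 µM, on 20 treated reads in all. All libraries at 0.3 µM were below the DMSO range and those at 3 µM overlapped it; the changes were -2.07 ± 0.39 (adjusted p = 1.6e-05) and -1.15 ± 0.40 (adjusted p = 0.013). The 0 in NCI-H1650 at 3 µM allows up to 46.7 CPM. The call at 3 µM was lost without the A375 library at that dose (-1.03, adjusted p = 0.058), and without the line NCI-H1650 (-0.91, 0.053), Hs 936.T (-1.32, 0.058) or A375 (-1.03, 0.062).

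EIF4E2, a cap-binding homologue that represses translation, ranged from 49.4 to 129 CPM with DMSO (median 105). It had 114, 245, 119 and 130 CPM at 0.3 µM and 31.1, 230, 94.2 and 123 CPM at 3 µM, each above its line's DMSO pair at 0.3 µM but below it in NCI-H1650 at 3 µM. The change was 0.53 ± 0.16 at 0.3 µM (adjusted p = 0.0040; 0.35, adjusted p = 0.074, without the line NCI-H520) and 0.30 ± 0.18 at 3 µM (adjusted p = 0.15; 0.58, adjusted p = 0.012, with libraries thinned to equal depth). EIF4E itself had 0.08 ± 0.13 at 0.3 µM (adjusted p = 0.59; 0.35, adjusted p = 0.032, without the line Hs 936.T) and rose by 0.62 ± 0.13 at 3 µM (adjusted p = 6.4e-05). EIF4G3, a paralogue of EIF4G1, had -0.29 ± 0.17 and -0.06 ± 0.19 (adjusted p = 0.14 and 0.82), and EIF4E3 had 66 reads in all and was not tested with RocA.

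The exchange factor eIF2B split between its subunits. EIF2B3, part of the catalytic core, had 66.8 and 49.6 CPM with DMSO in NCI-H1650, 377 and 413 in NCI-H520, 79.8 and 72.8 in Hs 936.T, and 105 and 104 in A375. It fell to 34.1, 133, 43.7 and 54.3 CPM at 0.3 µM and to 15.6, 107, 16.2 and 43.2 CPM at 3 µM, below the DMSO pair in each line (-1.13 ± 0.18, adjusted p = 5.0e-07, and -1.75 ± 0.21, adjusted p = 2.9e-09). EIF2B1, the regulatory alpha subunit, fell as well (-0.80 ± 0.17 and -0.79 ± 0.18, adjusted p = 8.6e-05 and 3.2e-04). The beta and delta subunit genes went up: EIF2B2 rose by 0.85 ± 0.17 at 3 µM (adjusted p = 2.7e-05) and EIF2B4 by 0.68 ± 0.15 and 0.52 ± 0.17 (adjusted p = 1.1e-04 and 0.0071).

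EIF2B2 had 0.31 ± 0.16 at 0.3 µM (adjusted p = 0.095), which passed without the NCI-H520 library at 3 µM (0.42, adjusted p = 0.027) or the Hs 936.T library at 0.3 µM (0.46, 0.042). The call of EIF2B4 at 3 µM was lost with the longest matched entry (0.18, adjusted p = 0.39), without the pair labelled NCI-H521 (0.50, 0.053) and without the line NCI-H520 (0.42, 0.097).

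The 4 eIF2 kinases also differed. EIF2AK1, activated by lack of haem, ranged from 54.5 to 167 CPM with DMSO (median 71.2) and had 279, 168, 89.2 and 136 CPM at 0.3 µM and 265, 260, 104 and 116 CPM at 3 µM. It was above its line's DMSO pair in each line (0.86 ± 0.15, adjusted p = 3.3e-06, and 1.07 ± 0.16, adjusted p = 4.3e-07). EIF2AK2, the kinase that senses double-stranded RNA, changed by -0.54 ± 0.16 at 0.3 µM (adjusted p = 0.0041) and -0.34 ± 0.19 at 3 µM (adjusted p = 0.11). Its call at 0.3 µM was lost without the NCI-H1650 library at that dose (-0.43, adjusted p = 0.065) and with libraries thinned to equal depth (-0.40, 0.14), while at 3 µM it passed without the NCI-H520 library at that dose (-0.54, 0.036).

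EIF2AK3, which senses unfolded protein in the endoplasmic reticulum, ranged from 9.07 to 29.4 CPM with DMSO (median 19.4) and had 17.1, 4.30, 19.2 and 6.03 CPM at 0.3 µM and 15.6, 4.26, 9.74 and 3.33 CPM at 3 µM. It had only 23 treated reads, and its call at 3 µM (-1.35 ± 0.52, adjusted p = 0.024) did not hold with DESeq2 (-1.32, adjusted p = 0.063). It was also lost without the 3 µM library of NCI-H520 (-1.10, 0.12), Hs 936.T (-1.62, 0.059) or A375 (-1.24, 0.082).

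EIF2AK4, activated by uncharged tRNA, depended on which entry stood for the gene. The entry used, of 1640 counted codons and 735 reads, ranged from 26.2 to 58.0 CPM with DMSO (median 34.4) and had 34.1, 47.3, 97.9 and 127 CPM at 0.3 µM and 15.6, 42.6, 39.0 and 83.2 CPM at 3 µM. The melanoma lines alone were above their DMSO pair at 0.3 µM, and the fitted change was 1.15 ± 0.20 (adjusted p = 4.2e-06), then 0.37 ± 0.27 at 3 µM (adjusted p = 0.24). An entry of 127 codons with 10968 reads was set aside because its length is also a coding length of a gene nearby. Had it been kept, the change would read -1.03 (adjusted p = 3.3e-11) and -0.73 (adjusted p = 3.4e-07), so the direction for this gene is uncertain.

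Of 6 tested elongation genes, EEF1A1 and EEF1D rose at both doses, EIF5A fell at both, EEF1E1 fell at 0.3 µM, and EEF1B2 and EIF5A2 were called at neither. Among all genes 24.2% rose and 35.8% fell at 0.3 µM, and 22.2% rose and 33.9% fell at 3 µM. EEF1A1, the carrier of aminoacyl-tRNA, had 9015 and 8360 CPM with DMSO in NCI-H1650, 24323 and 24311 in NCI-H520, 13997 and 13856 in Hs 936.T, and 11552 and 10978 in A375. It had 12963, 36492, 16381 and 14829 CPM at 0.3 µM and 11753, 45159, 17668 and 13213 CPM at 3 µM, above the DMSO pair in each line. The change was 0.45 ± 0.09 (adjusted p = 2.1e-05) and 0.48 ± 0.09 (adjusted p = 7.7e-06); EEF1A1 has close copies in the genome, so reads may be shared with them.

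EEF1D, an exchange factor for eEF1A, ranged from 457 to 908 CPM with DMSO (median 674) and had 1478, 1764, 956 and 950 CPM at 0.3 µM and 1308, 1833, 1049 and 945 CPM at 3 µM. No treated library overlapped the DMSO range (0.92 ± 0.09, adjusted p = 2.4e-11, and 0.95 ± 0.10, adjusted p = 4.1e-11). Its partner EEF1B2 had 0.14 ± 0.10 and -0.13 ± 0.11 (adjusted p = 0.22 and 0.30), and the first was called without the NCI-H520 library at 3 µM (0.24, adjusted p = 0.029) and the second without the line NCI-H520 (-0.33, adjusted p = 0.024). EIF5A2, a paralogue of EIF5A, had -0.56 ± 0.32 and 0.28 ± 0.32 (adjusted p = 0.14 and 0.46; the first was -0.67, adjusted p = 0.042, without DMSO replicate 1 of NCI-H520, and 0.01 without the Hs 936.T library at 0.3 µM) and 0 reads in both treated libraries of NCI-H1650, which allows 17.1 and 46.7 CPM. EEF1E1, better known as a part of the aminoacyl-tRNA synthetase complex, changed by -0.58 ± 0.17 at 0.3 µM (adjusted p = 0.0031), which came to -0.32 (0.15) without the Hs 936.T library at that dose, and by -0.33 ± 0.18 at 3 µM (adjusted p = 0.11; -0.51, adjusted p = 0.043, without the line NCI-H520).

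EIF5A, which helps the ribosome past stretches such as prolines, had the lowest adjusted p between doses of the 38 members. It ranged from 1484 to 3262 CPM with DMSO (median 1769) and had 824, 744, 558 and 1086 CPM at 0.3 µM and 1292, 1296, 825 and 1354 CPM at 3 µM. All treated libraries lay below the DMSO range and each line was lower at 0.3 than at 3 µM. The change was -1.35 ± 0.11 (adjusted p = 1.7e-14) at 0.3 µM and -0.77 ± 0.11 (adjusted p = 5.2e-08) at 3 µM.

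The methyltransferase gene EEF2KMT, whose product modifies the translocase eEF2, was the sole tested member of its role, since EEF1AKMT3 had too few reads. It ranged from 23.4 to 68.0 CPM with DMSO (median 35.5) and had 51.2, 86.1, 40.2 and 87.5 CPM at 0.3 µM and 46.7, 132, 120 and 99.8 CPM at 3 µM. At 0.3 µM Hs 936.T stayed within its DMSO pair and the other lines were above theirs, and the change was 0.68 ± 0.22 (adjusted p = 0.0064) and 1.44 ± 0.21 (adjusted p = 1.4e-07). The call at 0.3 µM rested on A375 (0.37, adjusted p = 0.21, without its library at that dose), and the value rose to 1.09 without that of Hs 936.T.

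Between the doses 2 of 38 members were higher at 3 than at 0.3 µM (0.933% of all genes were called higher) and 0 lower (2.08% of all genes), by edgeR's quasi-likelihood test. At an unadjusted p under 0.05 it gave 5 higher and 4 lower, and DESeq2 called 2 members. EIF5A differed by 0.58 ± 0.12 (adjusted p = 0.0048) and EIF4E by 0.54 ± 0.16 (adjusted p = 0.047). EIF4E had 273, 439, 147 and 280 CPM at 0.3 µM and 249, 721, 292 and 313 CPM at 3 µM, so NCI-H520 and Hs 936.T carried most of it. Without the NCI-H520 library at 3 µM neither was called (EIF5A 0.39, adjusted p = 0.13; EIF4E 0.35, adjusted p = 0.39). That library is 1 of the pair labelled NCI-H521, without which the values were 0.47 (0.063) and 0.43 (0.27). Without the line Hs 936.T they were 0.54 (0.11) and 0.35 (0.47). The call of EIF4E was also lost without any 1 of 10 other libraries, with values from 0.38 to 0.57.

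**Figure D3:**
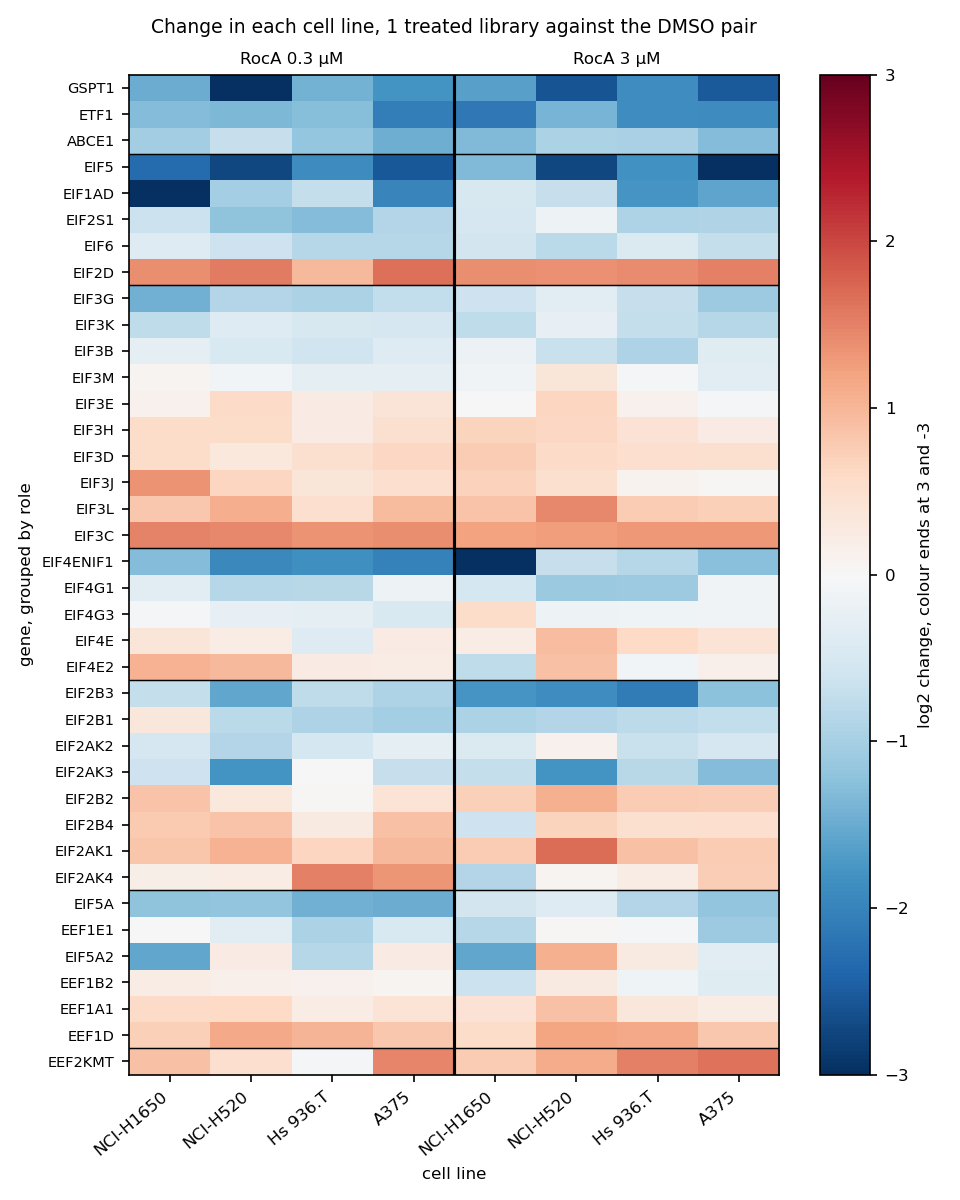
Log2 change of each tested factor (rows, grouped by role) in each cell line (columns), 1 treated library against the mean of its DMSO pair, at 0.3 µM (left) and 3 µM RocA (right). Rows of 1 colour, such as GSPT1, EIF5, EIF2D and EIF3C, had the same sign in all 4 lines at both doses.

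The response to RocA, taken over both doses, differed among the 4 lines for 2 of 38 members (3.22% of all genes were called). EIF4G1 (adjusted p = 0.0041) fell by 0.86 and 0.83 on the log2 scale at 0.3 µM and by 1.12 and 1.09 at 3 µM in NCI-H520 and Hs 936.T, but by 0.16 and 0.11 in A375. GSPT1 (adjusted p = 0.041) was lowest in NCI-H520, at -3.13 with 0.3 µM and -2.58 with 3 µM, against -1.80 to -1.42 in the other lines at 0.3 µM and -2.52 to -1.62 at 3 µM, where A375 was close to it. The NCI-H520 libraries held 12 and 18 reads of it. EIF3L, EIF5A and EIF4E2 came next and were not called (adjusted p = 0.14, 0.18 and 0.19).

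EIF4G1 lost its call without the 3 µM library of NCI-H520 (adjusted p = 0.053) or of A375 (0.067). GSPT1 lost it without the 0.3 µM library of NCI-H520 (0.47), NCI-H1650 (0.067) or Hs 936.T (0.063), without DMSO replicate 1 of NCI-H520 (0.062), and without DMSO replicate 1 (0.065) or 2 (0.062) of Hs 936.T. Without the 0.3 µM library of NCI-H1650, EEF1A1, EEF1D and EIF3L were called beside EIF4G1.

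Under DMSO all 40 recognised factors differed among the 4 lines, which 91.3% of the 7900 genes tested did too; DESeq2 called 37. EIF6 was highest in A375, with 892 ± 41.2 CPM (SD, n = 2) against 234 ± 11.4 to 299 ± 18.9 CPM in the other lines (adjusted p = 5.5e-21). EIF2B3 was highest in NCI-H520, with 395 ± 25.2 CPM against 58.2 ± 12.2 to 104 ± 0.695 CPM elsewhere (adjusted p = 2.1e-19). EEF1A1 was highest in NCI-H520 as well, 2.80-fold above NCI-H1650 (adjusted p = 2.1e-19), and EIF3M rose from 286 ± 12.9 CPM in NCI-H1650 and 369 ± 44.0 in Hs 936.T to 645 ± 36.6 in NCI-H520 and 932 ± 59.5 in A375 (adjusted p = 1.2e-17). The DMSO pair of NCI-H520 differed in its melanocyte genes, as given above; the part of this in the line differences was not tested, but all 40 remained called without the pair of libraries labelled NCI-H521. EIF3K varied least, 1.13-fold between lines (adjusted p = 0.049).

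Per codon, the eIF3 subunits were not at equal density. In CPM per 1000 counted codons under DMSO, the highest of the 10 subunits was 8.48 times the lowest in NCI-H1650, 5.61 times in NCI-H520, 4.79 times in Hs 936.T and 4.32 times in A375. EIF3K was the densest in NCI-H1650 (3320 ± 141, SD, n = 2), Hs 936.T (3310 ± 31.8) and A375 (3370 ± 113), and EIF3E in NCI-H520 (3330 ± 154). EIF3J was the lowest in NCI-H1650 (391 ± 68.6) and Hs 936.T (690 ± 12.2), EIF3D in NCI-H520 (594 ± 40.2) and EIF3B in A375 (779 ± 3.62). Entries of a gene can leave out reads of other isoforms, so a low density may be that of the entry.

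**Figure D4:**
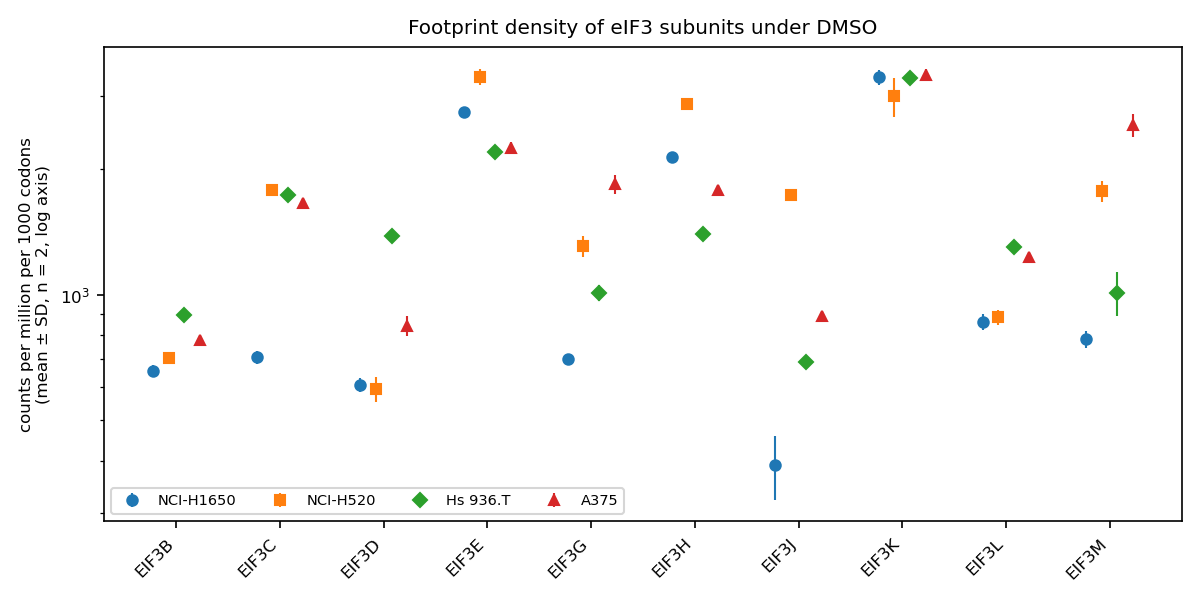
Footprint density of the 10 recognised eIF3 subunit genes under DMSO (CPM per 1000 counted codons, log axis; mean ± SD of 2 libraries) in each line. EIF3K lies between 2990 and 3370 in all 4 lines, while EIF3J runs from 391 to 1730.

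The sequences shown earlier were compared with the changes as a description; members share libraries and the points are genes. From the RefSeq start onward, or from the transcript's own start where that lies later, 29 members and 4930 tested genes had a readable 5′ UTR. Spearman's rho between the longest purine run and the change was -0.48 at 0.3 µM and -0.46 at 3 µM over the members, beside -0.47 and -0.42 over all genes. With the share of purines it was -0.20 and -0.10 (all genes -0.13 and -0.11), and with UTR length -0.40 and -0.44 (all genes -0.48 and -0.46); long UTRs also hold longer runs. The median run was 5.0 bases in 5 of the 10 members higher at both doses, 7.0 in 13 of the 15 lower at both and 7.0 over all genes. Over whole GENCODE 5′ UTRs it was 5.5 in the 10 higher, 8.0 in the 15 lower and 8.0 over all genes.

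Among the UTRs read, exceptions stood at both ends, as EEF1A1 rose with a run of 12 bases and GSPT1 fell with 5. Both depend on the transcript matched by coding length. In EEF1A1 the run began at base 673 of a 992-base UTR, at positions that leave no intron spliced out before it. A more spliced UTR of EEF1A1 was not read, nor were bases of GSPT1 upstream of its matched transcript. EIF3L and EIF3H, which rose at both doses, had no RefSeq start entry and were not among the 29 members. Their longest runs over the whole GENCODE 5′ UTR were 13 and 12 bases. The annotation mattered too. Over whole GENCODE 5′ UTRs (37 members) rho was -0.35 and -0.28 for the run and -0.42 and -0.40 for the share of purines, and in 11 of the 29 members the longest run of the GENCODE UTR lay before the RefSeq start. EIF5 was 1 of them: its GENCODE UTR has a run of 23 bases, a length that 1.4% of 6495 tested genes reach, but this run lies upstream of the RefSeq start. The motif GAGAGA, searched on the mRNA strand alone, was in 8.1% of the members' GENCODE UTRs and in 9.6% of those of all tested genes.

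**Figure D5:**
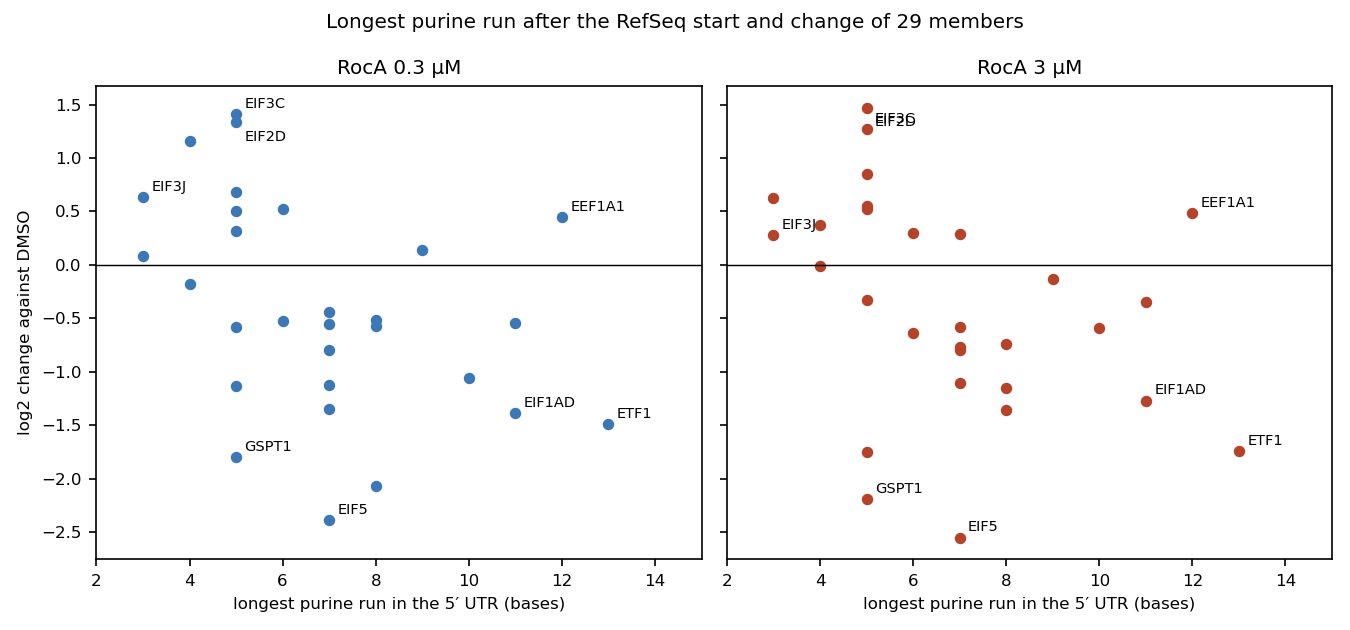
Longest purine run in the 5′ UTR from the RefSeq start (bases, x axis) and log2 change against DMSO (y axis) for 29 members at 0.3 µM (left) and 3 µM RocA (right). ETF1, with the longest run (13 bases), fell, while EEF1A1 with 12 rose and GSPT1 with 5 fell. The EEF1A1 run lies in a 992-base UTR with no intron spliced out before it. For GSPT1, sequence upstream of its matched transcript was not read.

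A pyrimidine run of at least 5 bases at the RefSeq start, counted in this way, was found in 7 of 31 tested members with an entry (22.6%), in 16.7% of 5381 tested genes, and in 15.4% of all 27305 RefSeq promoters of this length. Of the 10 members that rose at both doses 5 had an entry, and 3 of these had such a run (EIF3D, EIF2D and EEF1A1). Of the 15 that fell at both 14 had an entry, and 1 had such a run (EIF3K). The run was not counted apart for risers and fallers among all genes, so this does not set the members apart. EIF3J and EIF4E2, which rose at 0.3 µM, had runs of 6 bases, and EIF3M, called at neither dose, had 9.

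Other genes of cytosolic translation were counted beside the members. Of 24 tested, 8 rose and 5 fell at 0.3 µM, and 9 rose and 6 fell at 3 µM, with medians of 0.20 and 0.26. Over all genes 24.2% rose and 35.8% fell at 0.3 µM, and 22.2% rose and 33.9% fell at 3 µM, with medians of -0.18 and -0.23. At 0.3 µM the largest rises were those of DPH1 (1.46 ± 0.15), which starts the diphthamide modification of eEF2, TRMT112 (1.07 ± 0.13), which activates several methyltransferases, and ABCF1 (1.05 ± 0.12), an initiation ATPase. The largest falls were those of RPTOR, the mTOR complex 1 subunit (-1.85 ± 0.27), MKNK1, a kinase of eIF4E (-1.84 ± 0.47), and LARP4, a poly(A)-binding protein partner (-1.78 ± 0.16). At 3 µM DPH6, of the same pathway as DPH1, rose by 1.20 ± 0.18, and DHPS, which starts the hypusine modification of eIF5A, fell by 1.69 ± 0.23.

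Factors of mitochondrial translation also split. Of 6 tested genes, 4 rose and 2 fell at 0.3 µM (24.2% and 35.8% of all genes did). At 3 µM 3 rose and 2 fell (22.2% and 33.9% of all genes). The initiation factor MTIF2 (-2.19 ± 0.29 and -2.65 ± 0.37) and GFM2, which recycles mitochondrial ribosomes (-1.95 ± 0.24 and -2.61 ± 0.32), fell, and the release factor MTRF1L rose (1.17 ± 0.19 and 1.38 ± 0.21).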

How the data were processed

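The authors deposited, per library, raw footprint counts per annotated entry with the number of codons counted, and no gene names. Per the submitters' processing notes CASAVA 1.8, Bowtie2 2.1.0, TopHat2 2.0.9 and hg38 were used; the annotation release and the rules for shared reads are not given in the sources used here. Per the labels' protocols, RNase I footprints were recovered by pelleting ribosomes, ligated to a linker, depleted of rRNA and amplified. Reads are repeated over entries of a gene, so 1 entry, that with the most reads, stood for each gene.

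Genes were recognised by matching the codon lengths of neighbouring entries (coding length less 10 codons) to GENCODE 29, with a minimum score of 14 and odds of 100, which gave 10711 genes. Decoy lengths were named at 0.64% of that number. Rounding of incomplete coding sequences, entries shared by neighbours, and the setting aside of a highest entry whose length is shared within 100000 bases (86 genes, EIF2AK4 alone among the members) were settled after the files were seen. The sequence measures were also defined then. The members and lists were chosen with earlier results of these data known.

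Counts were tested with edgeR 4.0.16 (quasi-likelihood, robust, TMM scaling, filterByExpr with a minimum count of 10) in R 4.3.3, with line as covariate, over 6642 genes, 2-sided, and Benjamini-Hochberg adjustment over all of them; a call is an adjusted p under 0.05. The response among lines pooled both doses of a line, and the DMSO comparison used 7900 genes in 8 libraries. Changes of single lines used a prior count of 2. On simulated counts (6442 genes), the test found 75.3% of 97 genes changed 2-fold at 0.3 µM and 64.9% at 3 µM. It found 96.9% and 93.8% of 96 changed 4-fold, while 4.05% and 7.27% of the calls were of unchanged genes. In the simulation few genes changed, rises and falls were balanced and all lines responded alike. In the data most genes were called, more of them lower than higher, so these rates may not carry over. Members called at either dose were described by role, and those with the largest changes, the smallest p among DMSO lines or the smallest p in response were given in full. DMSO replicates of a line differed by more than counting noise (chi-square per degree of freedom 1.52 to 2.40). Alternatives were DESeq2 1.42.0, its size factors, no filter, the longest entry, a score of 20, thinning to equal depth, a replicate block, the pair labelled NCI-H521 left out, and each library or line left out; keeping the highest entry throughout was added after seeing the data. Intervals for 0 reads (3 reads) cover counting error only. Sequences came from GENCODE 29 on hg38 and RefSeq (GRCh38.p14; 32 members matched).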

Additional observations from a re-analysis of the deposited data

Results flagged for a closer look

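In 9 of 76 sets of 4 lines (1 gene at 1 dose), 1 line lay far from the others by Dixon's gap. Chance gives this in about 1 set of 20 if the 4 values have equal, normal spread. The treated libraries differ in depth, so that rate may not hold here. Such sets were not counted over all genes. At 0.3 µM EIF2B1 was 0.34 in NCI-H1650 against -1.02 to -0.80 in the other lines, and EIF2B4 was 0.28 in Hs 936.T against 0.78 to 0.87. EIF3H was 0.24 in Hs 936.T against 0.49 to 0.54, and ETF1 was -2.07 in A375 against -1.35 to -1.28. At 3 µM NCI-H520 was high for EIF2AK1 (1.67 against 0.75 to 0.87) and EIF2B2 (1.07 against 0.72 to 0.76). NCI-H1650, the shallowest library, was low for EIF2B4 (-0.61 against 0.47 to 0.67, on 2 reads) and EIF4ENIF1 (-4.04 against -1.25 to -0.70, on 0 reads). It was high for EIF4G3 (0.56 against -0.15 to -0.11, on 10 reads). The response to RocA differed among the lines for EIF4G1 (adjusted p = 0.0041) and GSPT1 (adjusted p = 0.041), by edgeR's quasi-likelihood test.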

How the results depend on the processing

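Of 76 changes of members against DMSO, 55 kept direction and side of the threshold in every alternative run for them. The count of members called stayed between 26 and 31 at 0.3 µM (30 to 33 with 1 library or line left out) and between 24 and 30 at 3 µM (27 to 30). The count between doses was 0 without the pair labelled NCI-H521, 1 with a matching score of 20 or thinned libraries, and 0 to 3 with 1 library or line left out. The count of responses that differ among lines was 4 with DESeq2, which added EEF1D and EIF3E, and 1 to 4 with 1 library left out. The DMSO count was 30 to 40 (30 of 31 tested with a score of 20), 37 to 40 with 1 library left out, and 39 with the replicate number as a replicate block. DMSO replicates with the same number deviated together with correlations of -0.05 to 0.14 between lines, so the numbers were not taken to pair samples. Reversed were EIF2AK4 with its highest entry (-1.03 and -0.73) and 5 values that were not called. Among these, at 3 µM, were EIF3M (0.03 with DESeq2, its size factors or a score of 20, 0.02 with the longest entry, 0.18 thinned, -0.20 to 0.16 with 1 library or line left out) and EIF4G3 (0.00 with DESeq2's size factors, 0.01 with DESeq2, 0.03 without the pair labelled NCI-H521, 0.02 thinned, -0.09 to 0.04 left out). With a library or line left out EIF5A2 at 0.3 µM ran from -0.75 to 0.12, EEF1B2 at 3 µM from -0.33 to 0.04 and EIF4E2 at 3 µM from 0.00 to 0.54. Thinning moved the median of all genes from -0.18 to -0.01 at 0.3 µM and from -0.23 to -0.03 at 3 µM; the cause was not tested. Few treated reads lie behind EIF5 (77), EIF5A2 (66), EIF1AD (37), EIF2AK3 (23) and EIF4ENIF1 (20).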
